A study of Mus musculus with 9 samples.

Results

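Tagged MyoD1 was followed at 8 genes that encode upstream regulators of the myogenic program: Pax3, Pax7, Six2, Six4, Six5, Eya1, Eya2 and Eya4. The genes were chosen by name from 55450 annotated mouse genes, with earlier results of these data known. A peak was counted for a gene when it overlapped the gene body or the 10 kb on either side of it. Overlapping or touching peaks of the 6 lists were joined, and 49 of the 58309 regions so formed lay in these windows. The line was a single-cell clone of C2C12 mouse myoblasts with 3xFlag-Halo added to MyoD1 at its own locus and with a doxycycline (dox) inducible 3xFlag-Halo-MyoD1 transgene under a TRE3GS promoter. Both groups carried both tagged forms and were moved to differentiation medium at the same time. The 3 no dox libraries were left untreated and the 3 +dox libraries received dox for 6 h before CUT and RUN, in which an antibody directs a nuclease to cut DNA free around its target. The antibody, anti-Flag M2, reads the endogenous and the induced protein together. Wild-type libraries without a tag were not analysed here, so no untagged background stands beside the values.

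Pax3 and Pax7 are paired-box transcription factors that mark muscle progenitors, Pax3 in the embryo and Pax7 in satellite cells, and they act above MyoD1. Six2, Six4 and Six5 are homeodomain factors of the sine oculis family, which bind MEF3 sites in muscle genes. Eya proteins do not bind DNA themselves and serve as coactivators of the sine oculis family. MyoD1 binds E-boxes, of which CAGCTG is the preferred form, as a dimer with an E protein.

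The lists held 116126 peaks in all, from 9389 to 53661 per library, the longest being that of +dox replicate 3. Depth ran from 2868000 to 8030000 alignments. The weakest peaks admitted had total signals of 837 to 904 in replicates 1 and 2 of both groups and of 336 and 354 in the replicates numbered 3. The lowest peak maximum of a list was 4 to 6 alignments. A missing call means that no peak was listed there, not that MyoD1 was absent. The lists hold no RNA, so the cell type was not checked against marker genes. Signal is in CPM, alignments scaled to the total of their library, with no spike-in. A height percentile is the rank of a peak's maximum signal within its own list, from 0 to 100. Group means were compared by exact two-sided permutation over the 20 assignments of 3 and 3 libraries, where 0.1 is the smallest p possible, so no comparison could reach 0.05.

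The regions the results turn on are shown first, as 151 bases centred on the position of maximum signal, from the RefSeq GRCm38 (mm10) genome, + strand. The first 5 lines are regions called in all 6 libraries, the next was called in 4, and the last is a region called in 2 +dox libraries and no no dox library. Capitals mark any match on either strand to the E-box CAGCTG, to the E-box CAGGTG, to the AP-1 site TGANTCA or to the MEF3 core TCAGGTT.
Dmpk intron, 10.02 kb upstream of Six5, chr7:19084500-19084650: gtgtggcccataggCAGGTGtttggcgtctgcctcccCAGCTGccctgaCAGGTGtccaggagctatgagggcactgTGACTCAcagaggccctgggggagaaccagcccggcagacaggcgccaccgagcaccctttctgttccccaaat
Six5 upstream, chr7:19094000-19094150: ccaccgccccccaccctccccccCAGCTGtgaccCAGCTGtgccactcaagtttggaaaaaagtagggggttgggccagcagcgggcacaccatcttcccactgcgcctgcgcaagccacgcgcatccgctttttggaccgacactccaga
Pax7 intron 7, chr4:139771250-139771400: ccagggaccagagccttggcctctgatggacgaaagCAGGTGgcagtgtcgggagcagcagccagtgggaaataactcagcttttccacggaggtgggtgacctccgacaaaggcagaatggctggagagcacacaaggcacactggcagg
Six4 intron 1, chr12:73110500-73110650: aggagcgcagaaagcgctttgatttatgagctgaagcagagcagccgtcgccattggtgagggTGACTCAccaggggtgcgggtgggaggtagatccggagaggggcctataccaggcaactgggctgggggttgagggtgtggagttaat
Eya2 intron 1, chr2:165653650-165653800: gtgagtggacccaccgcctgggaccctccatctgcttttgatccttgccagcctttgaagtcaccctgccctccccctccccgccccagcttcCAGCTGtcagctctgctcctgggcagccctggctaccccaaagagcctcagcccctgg
Pax3 intron 4, chr1:78182000-78182150: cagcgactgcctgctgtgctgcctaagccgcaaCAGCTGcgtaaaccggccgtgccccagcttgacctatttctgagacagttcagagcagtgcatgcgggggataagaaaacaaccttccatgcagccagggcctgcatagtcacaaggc
Eya2 intron 1, +dox lists only, chr2:165629975-165630125: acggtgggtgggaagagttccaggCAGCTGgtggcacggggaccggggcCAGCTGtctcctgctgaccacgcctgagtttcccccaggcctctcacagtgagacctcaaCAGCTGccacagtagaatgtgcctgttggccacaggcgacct
The other region called in all 6 libraries, at the start of Eya1, is not shown because its maximum lies in a UTR. The sequences differ in E-box content. The Dmpk intron sequence has 1 CAGCTG that lies between 2 matches to CAGGTG, and also a TGACTCA, the sequence upstream of Six5 has 2 CAGCTG, and the Pax7 sequence has a single CAGGTG. The Six4 sequence has neither E-box and 1 TGACTCA. The 151 bases of the Eya2 region found with dox alone have 3 CAGCTG, more than the other sequences shown. Over the whole region and 100 bp on each side it holds 3, against 6 at the Dmpk intron region and 4 upstream of Six5. The region 7.72 kb upstream of Pax7, also called in 2 +dox libraries and no no dox library, is not shown. Its 151 bases have 0 CAGCTG.

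MyoD1 peaks lay at 6, 7 and 6 of the 8 genes in no dox replicates 1, 2 and 3 and at 7, 8 and 8 in +dox replicates 1, 2 and 3. Of all protein-coding genes, 35.7, 45.3 and 37.2% had a peak in those no dox libraries and 46.2, 45.2 and 69.1% in those +dox libraries. No account was taken of gene length or of how the 8 genes were chosen. The windows held 10, 14 and 15 peaks without dox and 16, 14 and 42 with dox, or 13 ± 2.65 and 24 ± 15.6 (SD, n = 3 each). As a share of each list this was 0.107, 0.101 and 0.112% without dox and 0.128, 0.106 and 0.0783% with dox. The rise in +dox replicate 3 was thus no larger than that of its whole list. With only the 9389 tallest peaks of every list kept, the windows held 10, 8 and 10 peaks without dox and 12, 9 and 10 with dox, and the groups overlapped.

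Of the 8 genes, Six2 alone had more peaks in every +dox than in every no dox library, where 3.48% of the 27856 genes with any peak did so. None of the 8 had fewer peaks in every +dox library (0.0179% of genes). Six2 had no peak in the 3 no dox lists and 1 in each +dox list (exact permutation p = 0.1, adjusted p = 1 over all genes with a peak). The peaks in +dox replicates 1 and 2 lay at the Six2 start and reached 8 and 14 alignments, at percentiles 3.50 and 19.0. The peak in +dox replicate 3 lay elsewhere, 3.88 kb upstream, and reached 10 alignments, so no single Six2 region was called in all +dox libraries. With lists of equal length the difference at Six2 was 0, and with the common threshold on total signal the difference was 0.667 peaks.

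**Figure D1:**
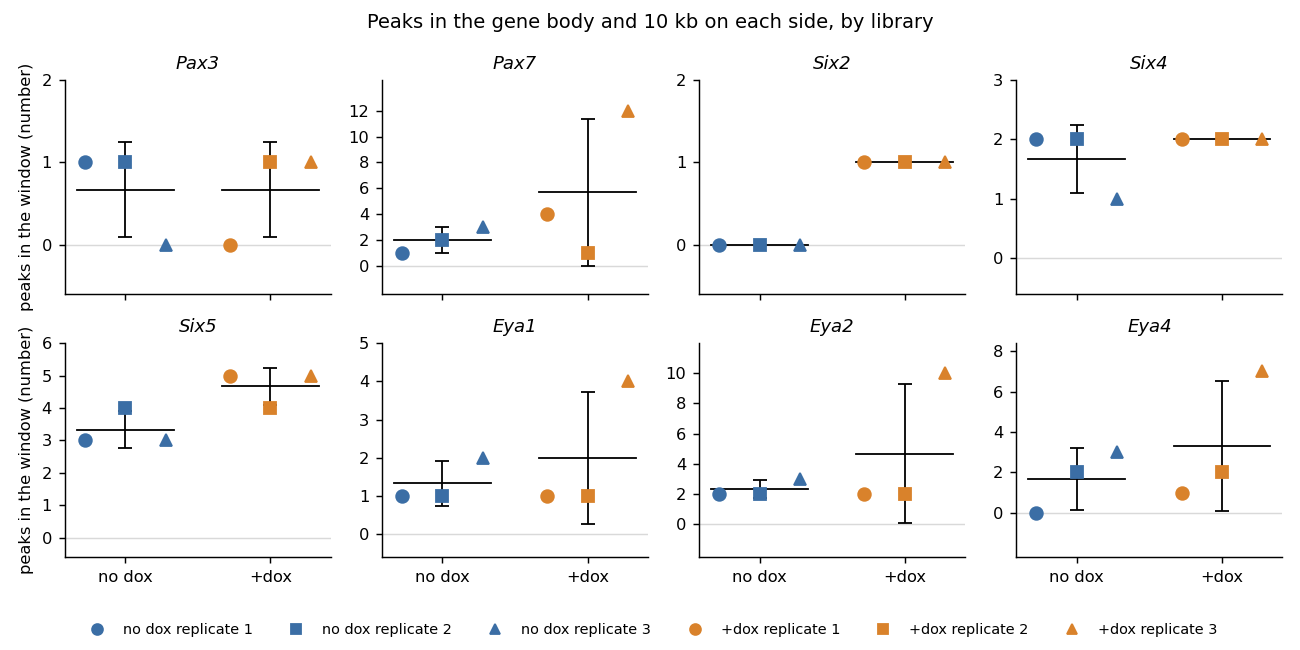
Number of peaks in each gene window (vertical axis, a scale of its own for each gene) in the 3 no dox and 3 +dox libraries; each symbol is a library, the line is the group mean and the bar 1 SD. +dox replicate 3 is the highest library at Pax7, Eya1, Eya2 and Eya4, with 12, 4, 10 and 7 peaks, and at Six2 each +dox library has 1 peak and each no dox library none.

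The sites bound in every library lay at 5 of the 8 genes. Of the 49 regions, 6 (12.2%, against 8.30% of all 58309) were called in all 6 libraries: 2 at Six5 and 1 each at Pax7, Six4, Eya1 and Eya2. In height percentile, 2 of these 6, both at Six5, ranked higher in every +dox than in every no dox library, against 23.7% of the 4838 such regions genome-wide, and none ranked lower in every +dox library (0.0413%). The median difference in percentile, +dox minus no dox, was 6.40 points over the 6 regions and 6.40 over all 4838. The members' median ran from 2.98 without +dox replicate 3 to 13.97 without no dox replicate 2, and was 1.33 with lists of equal length, where 4 regions were left. Taking the highest percentile in each gene window, 1 of the 5 genes with a peak in all 6 libraries, Six5, was higher in every +dox library (27.2% of 7764 such genes) and 0 were lower (0.0258%).

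Pax7, the satellite cell factor, had its tallest peak of every library at the same site, in intron 7 of its 8 introns, 62.2 kb from the start site (chr4:139769851-139772350). Its height percentiles were 96.6, 97.9 and 93.9 in no dox replicates 1, 2 and 3 and 88.1, 93.6 and 98.4 in +dox replicates 1, 2 and 3. Only the highest of the +dox values exceeded the no dox values, and the groups overlapped, with means of 96.1 ± 2.04 and 93.3 ± 5.16 (SD, n = 3 each, exact permutation p = 0.6). The difference of -2.75 points ran from -0.114 without +dox replicate 1 to -5.27 without +dox replicate 3. With lists of equal length it was -6.27, and every +dox library ranked lower (exact permutation p = 0.1). The share of all regions that ranked lower in this way at equal lengths was not measured. The maximum signal was 31.4, 41.3 and 13.3 CPM without dox and 30.7, 35.0 and 28.1 CPM with dox, and these overlapped as well. The remainder of the Pax7 window was called irregularly. Of its 16 regions, 13 were called in a single library and 10 of those in +dox replicate 3. The Pax7 start site was called in no dox replicate 2 at percentile 10.4 and in +dox replicate 1 at 29.7 and in no other library.

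**Figure D2:**
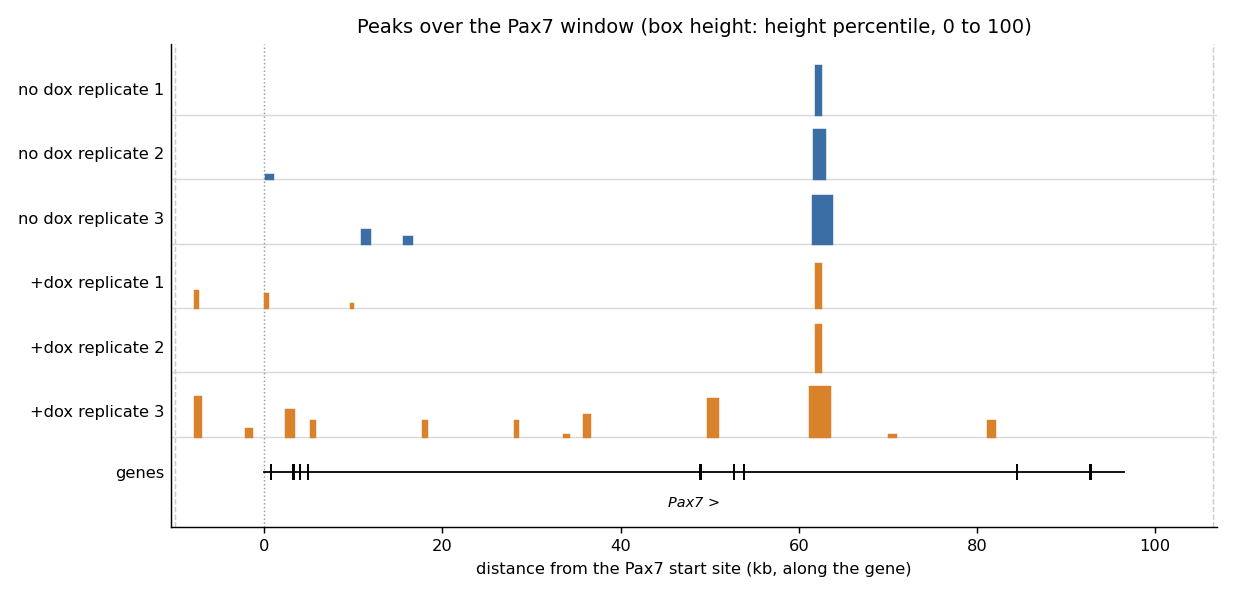
Peaks over the Pax7 window in each library against distance from the Pax7 start site in kb along the gene; box width is the peak, box height its height percentile (0 to 100), black bars are coding exons and dashed lines the window limits. The peak 62.2 kb into the gene is present in all 6 rows, whereas the other 11 peaks of +dox replicate 3 have no partner in most rows.

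Pax3, the embryonic counterpart of Pax7, had a single region, in intron 4, 15.1 kb from its start (chr1:78181601-78182550). It was called at percentiles 48.5 and 60.7 in no dox replicates 1 and 2 and at 82.2 and 79.9 in +dox replicates 2 and 3. It was not called in no dox replicate 3 or +dox replicate 1, so the number of libraries with a call was equal in the groups. Its maximum signal was 5.12 and 5.42 CPM without dox and 17.2 and 3.98 CPM with dox, which did not keep the order of the percentiles.

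Six5, a homeodomain factor whose gene lies directly downstream of Dmpk, the myotonic dystrophy protein kinase gene, carried the regions with the largest signal changes among these genes. The upstream region (chr7:19082751-19086550) has its maximum in a Dmpk intron, 634 bp from the nearest protein-coding Dmpk start and 10.02 kb upstream of Six5. It ranked at percentiles 97.7, 97.7 and 92.7 in no dox replicates 1, 2 and 3 and at 98.9, 99.1 and 99.4 in +dox replicates 1, 2 and 3. The +dox values all exceeded the no dox values, although the difference of 3.10 points stood close to the upper limit of the scale (exact permutation p = 0.1, adjusted p = 0.421 over 4838 regions). Without no dox replicate 3 it was 1.43 points, and with lists of equal length the groups overlapped (exact permutation p = 0.3). Its maximum signal was 40.7, 39.7 and 11.999 CPM without dox and 125.5, 100.7 and 45.8 CPM with dox, again without overlap. The ratio of geometric means was 3.10, with a log2 difference of 1.63 ± 0.73 (SE), at or above that of 94.7% of the 4838 regions. The middle of the maximum lies just outside the 10 kb limit, and the region was counted because its peaks overlap the window.

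The nearer Six5 region (chr7:19091701-19096650) has its maximum between Dmpk and Six5, 519 bp upstream of the Six5 start. Its percentiles were 89.2, 94.6 and 76.1 without dox and 96.5, 96.1 and 97.4 with dox, with no overlap between groups (difference 10.01 points, exact permutation p = 0.1, adjusted p = 0.421). Without no dox replicate 3 the difference was 4.76 points and ranked on total signal 5.25, and with lists of equal length the groups overlapped (exact permutation p = 0.5). In CPM it reached 16.3, 23.5 and 5.57 without dox and 67.6, 47.3 and 21.2 with dox. Here +dox replicate 3 lay below no dox replicate 2, so the groups overlapped, with a ratio of 3.17 and a log2 difference of 1.66 ± 0.80 (SE, exact permutation p = 0.2). Which of the genes nearby, if any, responds to these sites was not measured. The peaks per library in the Six5 window were 3, 4 and 3 without dox and 5, 4 and 5 with dox, and no dox replicate 2 equalled +dox replicate 2.

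**Figure D3:**
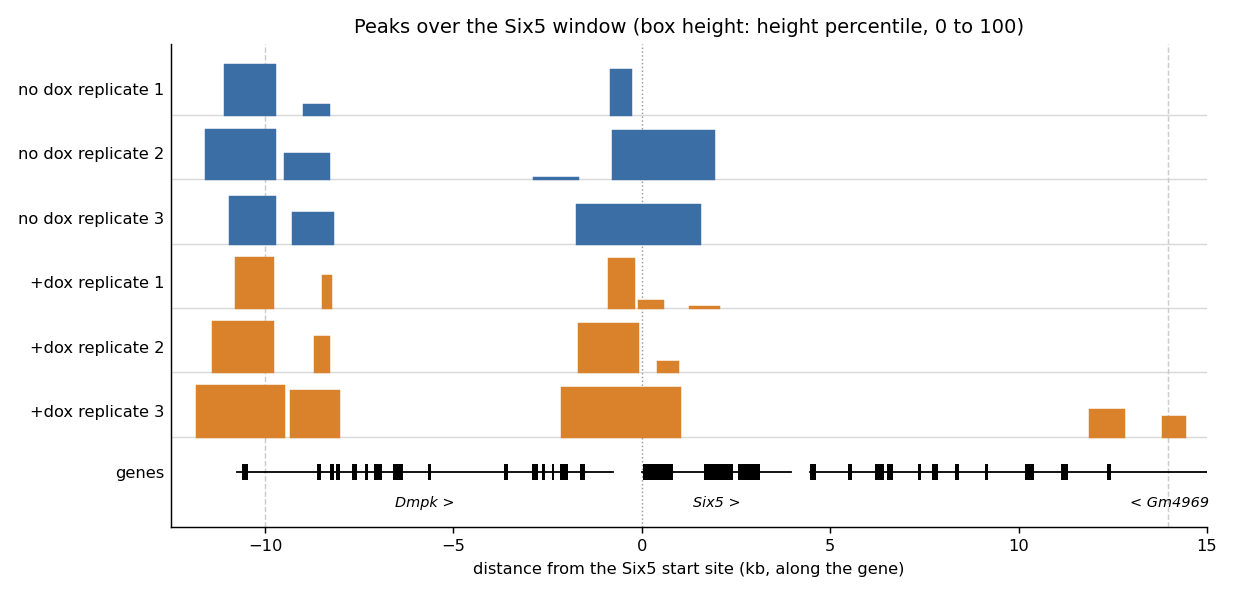
Peaks over the Six5 window in each library against distance from the Six5 start site in kb along the gene; box width is the peak, box height its height percentile (0 to 100), black bars are coding exons of Dmpk, Six5 and Gm4969, dashed lines the window limits and the dotted line the Six5 start. All 6 rows share boxes at the start of Dmpk, in the Dmpk body and at the Six5 start, and +dox replicate 3 alone has peaks more than 10 kb downstream of that start.

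Six4, another homeodomain factor, was bound at its first intron, 2.88 kb from the start (chr12:73110051-73111400), in all 6 libraries. The percentiles were 48.5, 80.4 and 82.0 without dox and 70.5, 75.4 and 94.1 with dox. The groups overlapped (difference 9.70 points, exact permutation p = 0.6). By maximum signal they did not overlap, at 5.12, 9.48 and 6.86 CPM without dox and 14.6, 13.3 and 11.7 CPM with dox, a ratio of 1.90 (exact permutation p = 0.1). A merged region over the Six4 start (chr12:73111501-73113950) was called at percentiles 6.80 and 10.4 in no dox replicates 1 and 2. It was not called in no dox replicate 3, and stood at 49.3, 46.9 and 64.6 in +dox replicates 1, 2 and 3. Its peaks did not share a position. Those of no dox replicates 1 and 2 began 0.306 and 0.756 kb inside the gene and did not cover the start. The +dox replicate 1 peak ended 0.105 kb inside the gene and overlapped neither. Only the wide peaks of +dox replicates 2 and 3 joined them. All called +dox ranks lay above both no dox ranks, but they are not ranks of a single site. In CPM the groups overlapped, at 2.33 and 2.26 in no dox replicates 1 and 2 and 8.37, 6.67 and 2.24 in +dox replicates 1, 2 and 3.

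Among the coactivator genes, Eya1 was bound at its start (chr1:14309401-14310750) in all 6 libraries. Its percentiles were 36.6, 19.7 and 47.9 without dox and 45.3, 42.4 and 91.1 with dox. No dox replicate 3 lay above +dox replicates 1 and 2, so the groups overlapped (difference 24.9 points, exact permutation p = 0.3). The difference was 9.13 points without +dox replicate 3 and 43.9 points ranked on total signal (exact permutation p = 0.1), and with the common threshold on total signal it was 23.0 points (exact permutation p = 0.1). The maximum signal was 4.19, 2.71 and 3.00 CPM without dox and 7.67, 6.12 and 8.47 CPM with dox, a ratio of 2.27 without overlap (exact permutation p = 0.1). A further Eya1 region in intron 1 lay 5.46 kb from the start and 147 bp from another annotated Eya1 start (chr1:14304201-14305600). It was called only in the replicates numbered 3, at percentile 78.4 without dox and 95.9 with dox.

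Eya2 had its region called in all libraries in intron 1, 58.7 kb from the start and 1573 bp from another annotated Eya2 start (chr2:165653001-165654350). Its percentiles were 57.7, 76.0 and 47.9 without dox and 55.8, 19.0 and 90.5 with dox. The +dox libraries spanned the no dox range on both sides, and the difference of -5.45 points was smaller than their SD of 35.7 (exact permutation p = 0.9). The maximum signal was 6.05, 8.13 and 3.00 CPM without dox and 9.76, 3.89 and 7.97 CPM with dox, and these overlapped (ratio 1.27, exact permutation p = 0.6). Eya2 also had the second largest number of regions, 13, of which 10 were called in a single library.

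Eya4 had no region called in all 6 libraries. The region at its start (chr10:23349601-23351000) was called in 5 libraries, at percentiles 29.1 and 14.9 in no dox replicates 2 and 3 and 45.3, 19.0 and 54.0 in +dox replicates 1, 2 and 3. The groups overlapped there. An intron 4 region (chr10:23176751-23178350) was called at 19.7 and 61.2 in no dox replicates 2 and 3 and at 19.0 and 73.2 in +dox replicates 2 and 3, so neither replicate 1 had a call and the groups overlapped. The tallest Eya4 peak, at percentile 95.7 and 120 alignments, lay in intron 4 and was called in +dox replicate 3 alone.

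**Figure D4:**
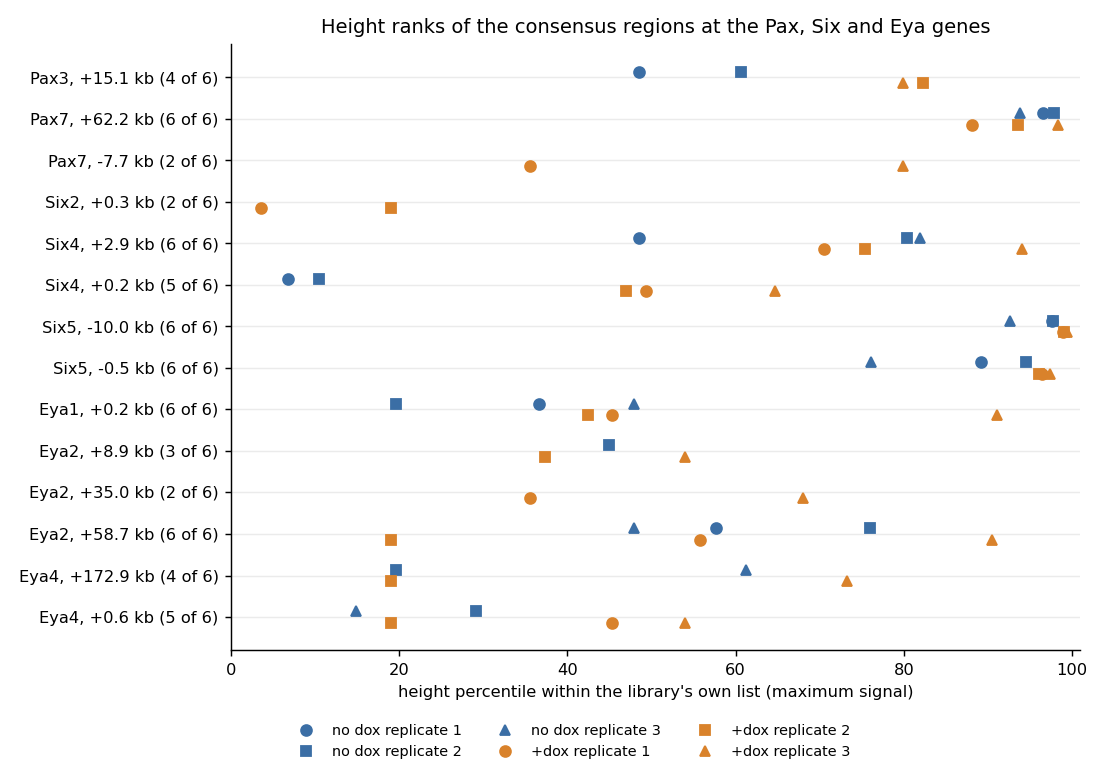
Height percentile within each library's own list (horizontal axis, 0 to 100) of the 14 regions called in at least 2 libraries of a group, labelled by gene, distance from the gene's start in kb and number of libraries with a call; blue symbols are no dox and orange +dox libraries, and a missing symbol means no call. The 2 Six5 regions rank higher in every +dox library, and the Pax7 region at 62.2 kb lies at 88.1 or above in all libraries with the groups mixed.

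By maximum signal, 3 of the 6 regions called everywhere (at Six4, at Eya1 and the upstream Six5 region) were higher in every +dox library, where 27.5% of the 4838 regions were, and none was lower in every +dox library (0% of regions). The ratio of +dox to no dox exceeded 1 at 6 of 6, as it did at 96.1% of all regions, and its median was 2.08 against 1.88. The interquartile range over all regions was 1.49 to 2.34, so only the Six5 ratios of 3.10 and 3.17 lay above it, and those at Pax7 (1.21) and Eya2 (1.27) lay below it. No adjusted p fell below 0.364. Replicate numbers were taken to pair libraries of the groups, so ratios were also taken within numbers. No label names a shared batch. For number 2 the correlation of deviations from group means (0.267) was close to the highest one across numbers (0.265). The upstream Six5 region gave 3.08, 2.53 and 3.82 in pairs 1, 2 and 3, and the nearer Six5 region 4.15, 2.01 and 3.80. Eya1 gave 1.83, 2.26 and 2.82, Six4 2.86, 1.41 and 1.71, Eya2 1.61, 0.479 and 2.66, and Pax7 0.977, 0.848 and 2.12. In CPM, 4 of 6 regions were higher with dox in all 3 pairs, where 72.3% of the 4838 were, and in percentile 3 of 6, where 35.7% were (exact sign-flip p = 0.25 for each such region, the smallest possible).

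**Figure D5:**
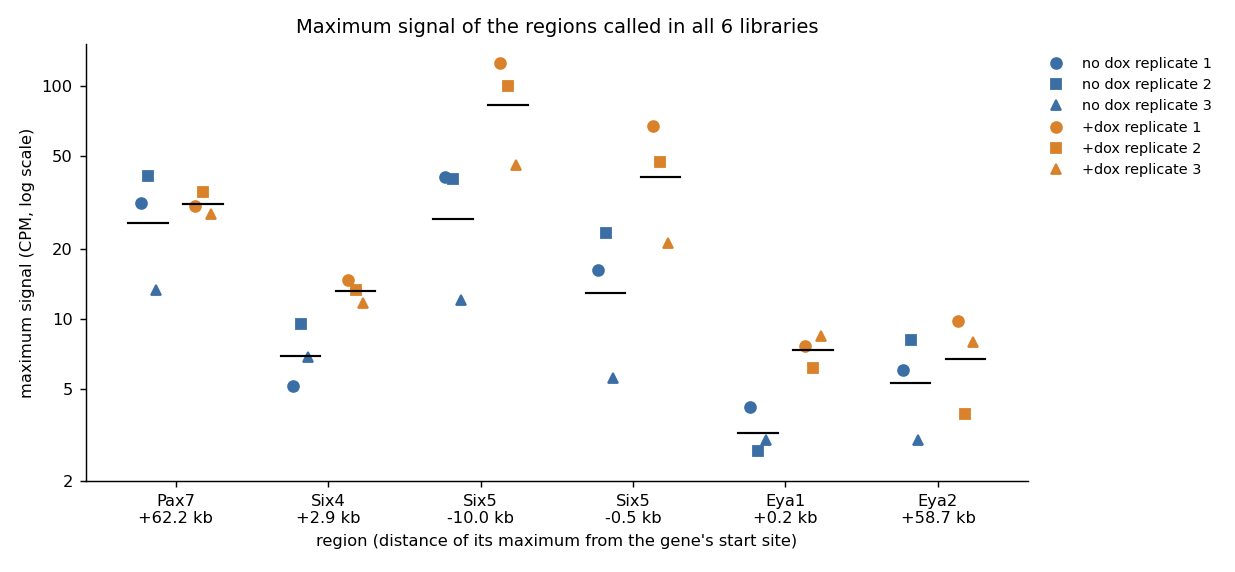
Maximum signal in CPM (vertical axis, log scale) of the 6 regions called in all libraries, labelled by gene and distance from its start in kb; blue symbols are no dox and orange +dox libraries and the lines are geometric means of 3. The 2 Six5 regions show the widest gap between group means, with ratios of 3.10 and 3.17, and at Pax7 and Eya2 the symbols of the groups interleave.

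A region was taken as consensus in a group when at least 2 of its 3 libraries had a peak in it. By this rule 10 of the 49 regions were no dox consensus (20.4%, against 16.2% of all 58309) and 14 were +dox consensus (28.6%, against 23.7%). With lists of equal length, the no dox and the +dox consensus held 7 regions each. All 10 no dox consensus regions were also +dox consensus (14.5% of all regions were consensus in both), and 0 were lost, where 1.65% of all regions were. The 4 regions in the +dox consensus alone make up 8.16% of the 49, where 9.14% of all regions were of this kind. They lay 7.72 kb upstream of Pax7, at the Six2 start, and in intron 1 of Eya2 at 8.94 and 35.0 kb from its start. The Pax7 region was called at percentiles 35.5 and 79.9 in +dox replicates 1 and 3. The Eya2 region at 8.94 kb was called at 37.4 and 54.0 in +dox replicates 2 and 3 but also at 44.9 in no dox replicate 2, so its absence from the no dox consensus rests on 2 libraries. The Eya2 region at 35.0 kb was called at 35.5 and 68.0 in +dox replicates 1 and 3. A call in all 3 +dox libraries with no call without dox occurred at 0 of the 49, and at 1.09% of all regions.

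Most of the regions at these genes rested on a single list. Of the 49, 32 were called in 1 library (65.3%, against 67.8% of all regions) and 26 in +dox replicate 3 alone (53.1% against 59.2%). Those 26 had maxima of 6 to 120 alignments, with a median of 10, and a median percentile of 31.8. The 15 regions that +dox replicate 3 shared with other libraries had maxima of 14 to 368 alignments, with a median of 32, and a median percentile of 79.9. This library had the greatest depth and the lowest total-signal floor, and the part of either in these counts was not tested. By position, 38 of the 49 maxima lay in introns (44.4% of all regions), 5 between genes (41.2%), 4 in UTRs (7.56%) and 2 in coding exons (6.85%). The windows are made largely of gene bodies, and the part of that choice in these differences was not tested. Of the 49, 8 lay within 1 kb of the start of a protein-coding transcript, as did 20.2% of all regions.

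Sequence matches were counted within 150 bp of each maximum. CAGCTG occurred in 24 of the 49 regions, where 37.4% of all 58308 regions searched held it, and CAGGTG in 16, where 28.8% did. TGANTCA occurred in 11 (17.7% of all) and TCAGGTT, the letters bound by the sine oculis family, in 6 (4.15% of all). TCAGGTT and CAGGTG share 5 letters and differ in the last, so a match to one is not a match to the other. Of the 6 regions called in all libraries, 3 held CAGCTG near the maximum (56.2% of the 4838) and these were both Six5 regions and the Eya2 region. When the whole region and 100 bp on each side were searched, 6 of 6 held it (85.4%). The nearer Six5 region, which lies just upstream of the gene, held 1 TCAGGTT near its maximum. The Six4 start region also held 1. These counts describe letters in the windows and were not tested as binding sites.

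Other genes of the network were read from lists fixed by name. Eya3, a further coactivator gene, had 0, 1 and 0 peaks without dox and 1, 2 and 3 with dox, so +dox replicate 1 equalled no dox replicate 2 (exact permutation p = 0.2). Six3 had 0, 0 and 1 peaks without dox and 1, 0 and 1 with dox, and Six6, Dach1 and Dach2 had none in any list. Of 7 other Pax genes, 5 had a peak in any library, 3 of them (Pax6, Pax8 and Pax9) in +dox replicate 3 alone, and 0 in all 6. Of all 55450 annotated genes, 27856 had a peak in at least 1 library and 7764 in all 6. None of the 7 had more or fewer peaks in every +dox library. Among other upstream muscle and migration factors, Pitx3, a homeodomain gene, had 2 regions called in all 6 libraries. The Pitx3 region 349 bp upstream of its start stood at percentiles 82.2, 87.2 and 84.8 without dox and 83.0, 82.2 and 95.3 with dox, and the groups overlapped. Its maximum signal was higher in every +dox library, at 11.6, 13.1 and 7.71 CPM without dox and 23.7, 17.2 and 13.9 CPM with dox. The region 4.15 kb upstream, 34 bp from a Gbf1 start, ranged from 21.4 to 89.3 over the libraries.

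By highest percentile in each library, the genes most like Six5 among 5426 protein-coding genes with a peak in all 6 libraries and no overlapping gene window were Rsph6a, Habp2 and Dlx3, with mean absolute differences of 0, 0.302 and 0.333 points over the 6 libraries. The value of 0 for Rsph6a arises because its window takes in the same peak. For Pax7, among 5429 genes, they were Kcnk16, Pi16 and Ctnnbl1, at 1.05, 1.06 and 1.09 points.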

How the data were processed

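The 6 peak lists of the tagged cells were used, 3 per group, with groups and replicate numbers from the titles of the samples. The authors aligned reads to mm10 with nf-core/cutandrun 3.2.2, normalised coverage to the alignments of each library (CPM) and called peaks with SEACR in relaxed mode on each library. The control and numeric threshold of that call are not given in the sources used here, and SEACR and deepTools are also named in the submitters' processing notes. Each deposited list gives, per peak, the total signal and the maximum signal in CPM. Maximum signals were whole multiples of 1 step in 100% of peaks, within 0.05 alignments, and that step, the worth of 1 alignment, gave depths to the nearest 1000.

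Windows used GENCODE vM21 gene bodies with 10 kb on each side. Peaks were ranked on maximum signal within their list and merged over the 6 lists. Tests were exact permutations with Benjamini-Hochberg adjustment over all genes or regions tested, and scripts were tested on simulated data. Replicates are biological per the labels. The members and gene lists were chosen with earlier results of these data known. Named genes are the 8 members, listed network genes with a region called in all 6 libraries (some are not reported here), with the remaining genes of those lists named after their values were seen, genes whose start is nearest to a member region described, and the 3 genes most like Six5 and Pax7, the members with the highest ranks. Other regions named, such as those of a single library, were chosen after their values were seen. Deviations of log2 maximum signal from group means, over 4838 regions, had correlations of 0.485, 0.267 and 0.628 between same-numbered libraries, each above 0.1, and -0.560 to 0.265 otherwise, so numbers were taken to pair libraries; no label names a shared day or batch. The comparison in CPM, the ratios within numbers and the use of replicates 1 and 2 alone were added after seeing the data. Motifs were searched in RefSeq GRCm38.p6. Python 3.11.15, NumPy 2.4.6, SciPy 1.17.1, pysam 0.24.0 and matplotlib 3.10.9 were used.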

Additional observations from a re-analysis of the deposited data

How the results depend on the processing

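Among 356 values recomputed, 20 changed sign, 21 moved by more than 1 SD of the replicates (or, for counts, by more than 1.5 times) and 315 did neither. The cause was not tested unless the alternative itself removes peaks or libraries. No call could be gained or lost, since the smallest p was 0.1. Leaving out each library in turn, the number of the 8 genes with more peaks in every +dox library ran from 1 to 3. The median difference in highest percentile ran from -1.04 (without +dox replicate 3) to 11.99 (without +dox replicate 2). Regions called in every +dox and no no dox library ran from 0 to 2. Regions higher in CPM in every +dox library ran from 3 to 5. The count was 5 of the 7 regions called in every library kept, without no dox replicate 2 and likewise without +dox replicate 3. The shares of all regions under these settings were not measured. With lists of equal length, 0 genes had more peaks in every +dox library and the median difference in highest percentile was -3.44. The no dox consensus and the +dox consensus then held 7 regions each. The common threshold and the gene body alone also gave 0 genes. A consensus of 3 of 3 libraries left 6 regions without dox and 8 with dox. Replicates 1 and 2 alone gave 1 region in every +dox and no no dox library. Of the 8 regions then called in every library, 6 were higher in CPM in both +dox libraries. The share of all regions under this looser rule was not measured.

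Six4 changed sign in percentile, its highest percentile and its intron 1 region alike, to -1.18 without no dox replicate 1 (the highest such value being 15.5) and to -0.605 with equal lengths. Without +dox replicate 3, Eya1 changed sign to -0.333 peaks and -1.04 percentile points, Eya2 to -0.333 peaks and -14.0 points, and Eya4 to -0.167 peaks. The highest values with a library left out were 1.17 peaks and 33.1 points at Eya1, 3.67 peaks at Eya2 and 2.83 peaks at Eya4. Eya2 also fell to -0.333 peaks with equal lengths. Its highest percentile was -0.766 without no dox replicate 1, -5.64 without no dox replicate 3 and -16.6 with equal lengths. It was -1.93 with the common threshold, -1.43 ranked on total signal and -20.3 with replicates 1 and 2 alone. The Eya2 intron 1 region called in all 6 libraries was 2.31 without no dox replicate 2 and 12.6 without +dox replicate 2. Its lowest value with a library left out was -23.1, and with replicates 1 and 2 alone it was -29.5. With the replicate block, pairing same-numbered libraries, differences are the same by construction, the smallest p is 0.25 and no call changed. The part of depth in calls near the floor of 4 to 6 alignments was not tested.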
